A study of Mus musculus with 12 samples.

Results

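The mechanistic target of rapamycin (mTOR) pathway is represented here by 10 genes, taken from the table by their symbols: Mtor, Rptor, Rictor, Tsc1, Tsc2, Rheb, Sesn2, Fkbp1a, Rps6kb1, and Eif4ebp1. The count table lists 35303 gene symbols, of which 17676 had enough counts to be tested, and all 10 genes were among them. Bulk RNA sequencing covered 12 libraries of mouse myeloid-derived suppressor cells (MDSCs), immature myeloid cells that restrain T cells, in 3 groups of 4 libraries. All groups were wild type (WT) by the labels, and the methods describe bone marrow of female C57BL/6 mice aged 6 to 10 weeks, grown with interleukin-6 (IL-6) and GM-CSF. The MDSC group was unmodified, MDSC-NP-Blk cells carried blank nanoparticles (NPs) of the polyester PLGA on their surface, and CITED cells carried the same kind of NP loaded with rapamycin. The NPs were attached by click chemistry between azido groups on the cells and DBCO groups on the particles, and every group was then kept for 24 hours in medium with IL-6 at 40 ng/ml. The labels and the study call the 4 libraries of a group biological replicates. The methods do not say whether the unmodified cells bore azido groups or whether the replicates came from separate mice.

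The kinase mTOR works in a pair of complexes. In mTORC1 it binds raptor (Rptor), responds to amino acids and growth factors, and drives protein synthesis through S6 kinase (Rps6kb1) and the translation repressor 4E-BP1 (Eif4ebp1). In mTORC2 it binds rictor (Rictor) and acts on Akt. The small GTPase Rheb switches mTORC1 on, the Tsc1 and Tsc2 proteins (hamartin and tuberin) switch Rheb off, and sestrin 2 (Sesn2) restrains mTORC1 when leucine is scarce. Rapamycin acts only after it has bound FKBP12, the product of Fkbp1a, and the resulting pair docks on mTOR and inhibits mTORC1. These are effects on proteins and their phosphorylation, whereas the values below are RNA levels. In myeloid cells the pathway is known to steer growth, metabolism, and differentiation.

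Library totals ranged from 20604809 to 37855478 counts. Normalized counts below are counts scaled by library size and a composition factor to the mean library, and differences were tested with the quasi-likelihood F test of edgeR, with p-values adjusted over all 17676 genes. An adjusted p below 0.05 was the threshold for a gene to be called higher or lower, and a gene counted as differentially expressed if its log2 fold change was also 1 or more in size. The libraries differed in how expression depended on transcript length. Across 10543 genes, the Spearman correlation between relative expression and length was 0.22 to 0.35 in the MDSC libraries, between −0.42 and 0.09 with blank NPs, and between −0.34 and −0.19 in CITED. For the 10 genes, each result is therefore given again after a correction for transcript length wherever the correction changed its call or direction, or moved the size of a difference that passed by more than 1.5 times. Itgam, which encodes CD11b, averaged 52000 to 70000 normalized counts in the groups, and Ly6g averaged 3930 to 4620. A tissue label names the CNS, but Gfap, Snap25, and Olig2 had 0 counts in all 12 libraries, whereas Mbp was present.

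Promoter windows of 5 of the genes are shown because the transcripts moved in pairs against unmodified MDSCs (Fkbp1a with Eif4ebp1 upward, Mtor with Rptor downward) and because Tsc1 alone passed the test between the NP groups. Each window covers 250 bases before the transcript start and 50 from the start onward in GRCm39, written 5′ to 3′ on the strand of the gene. Capitals mark an ETS motif (CCGGAAGT, or ACTTCCGG on the other strand) or an E-box (CACGTG).
Fkbp1a, chr2:151384132-151384431, plus strand: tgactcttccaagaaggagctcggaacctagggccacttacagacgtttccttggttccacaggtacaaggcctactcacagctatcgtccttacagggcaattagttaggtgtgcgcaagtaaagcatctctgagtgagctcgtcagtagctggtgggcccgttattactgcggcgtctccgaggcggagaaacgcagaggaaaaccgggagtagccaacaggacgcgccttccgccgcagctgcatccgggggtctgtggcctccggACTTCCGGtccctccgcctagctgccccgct
Eif4ebp1, chr8:27750100-27750399, plus strand: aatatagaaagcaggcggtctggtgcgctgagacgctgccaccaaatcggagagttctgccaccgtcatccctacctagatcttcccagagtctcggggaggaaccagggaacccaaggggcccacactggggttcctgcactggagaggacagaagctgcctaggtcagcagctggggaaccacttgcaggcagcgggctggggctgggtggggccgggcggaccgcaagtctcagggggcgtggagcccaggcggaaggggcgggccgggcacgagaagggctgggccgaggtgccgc
Mtor, chr4:148532786-148533085, plus strand: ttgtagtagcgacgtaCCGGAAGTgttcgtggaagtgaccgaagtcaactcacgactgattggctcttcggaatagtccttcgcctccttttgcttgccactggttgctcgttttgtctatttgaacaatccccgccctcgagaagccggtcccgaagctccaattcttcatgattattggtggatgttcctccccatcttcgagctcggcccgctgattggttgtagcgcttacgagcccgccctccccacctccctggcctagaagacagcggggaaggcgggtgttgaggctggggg
Rptor, chr11:119493725-119494024, plus strand: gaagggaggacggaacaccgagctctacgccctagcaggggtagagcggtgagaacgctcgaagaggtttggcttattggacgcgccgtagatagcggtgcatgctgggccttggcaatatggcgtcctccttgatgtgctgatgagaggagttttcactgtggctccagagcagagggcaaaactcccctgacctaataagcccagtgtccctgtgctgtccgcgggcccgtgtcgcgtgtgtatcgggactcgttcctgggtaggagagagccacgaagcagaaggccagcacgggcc
Tsc1, chr2:28530811-28531110, plus strand: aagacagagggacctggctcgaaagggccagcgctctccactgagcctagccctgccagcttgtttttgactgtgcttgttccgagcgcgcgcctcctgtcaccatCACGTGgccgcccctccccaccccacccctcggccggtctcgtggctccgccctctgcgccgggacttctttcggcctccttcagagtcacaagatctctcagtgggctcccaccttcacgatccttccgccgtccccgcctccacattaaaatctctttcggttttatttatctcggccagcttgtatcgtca
The ETS letters began 19 bases after the start base of Fkbp1a and at position −234 of Mtor, and the E-box began at position −144 of Tsc1, with the start base counted as 0. Of 21423 promoters of protein-coding genes with the same window, 4.4% held the ETS letters and 7.87% the E-box. The CLEAR element (which contains the E-box, 0.327% of promoters), the C/EBP-ATF composite (TGATGNAA, 3.78%), and the cAMP response element (TGACGTCA, 2.46%) were searched on both strands and matched in none of the 10 genes. The GC box (GGGCGG, 42.9% of promoters) matched in 6 of them, with 4 matches in Rictor and 2 each in Mtor, Tsc1, Rheb, and Eif4ebp1, and 1 in Sesn2. These are matches of letters in a fixed window and not evidence of binding.

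Compared to unmodified MDSCs, CITED had 4 of the 10 transcripts higher and 5 lower, and only Tsc1 did not pass. Fkbp1a and Eif4ebp1 rose 1.86-fold and 1.89-fold, Sesn2 and Rheb rose less, Rptor, Rps6kb1, and Mtor fell to 0.644, 0.669, and 0.698 of the MDSC level, and Rictor and Tsc2 fell less. Of all genes tested, 22.2% were higher and 22.2% were lower in this comparison. The differential expression threshold, met by 9.99% of all genes, was reached by 0 of the 10 genes, so each difference was smaller than 1 on the log2 scale. The median log2 fold change was −0.05 over the 10 genes and −0.05 over all genes tested.

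MDSC-NP-Blk, which carries no rapamycin, had 3 transcripts higher (Sesn2, Fkbp1a, and Eif4ebp1) and 5 lower (Mtor, Rptor, Tsc1, Tsc2, and Rps6kb1) than MDSCs, with Rictor and Rheb not passing. The background was 19.9% of all genes higher and 18.6% lower, and 0 of the 10 genes were differentially expressed against 4.74% of all genes. The median log2 fold change was −0.19 over the 10 genes and −0.03 over all genes. Both of these comparisons use the same 4 MDSC libraries, so their values stand side by side and do not support each other.

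Between CITED and MDSC-NP-Blk, which differ by the rapamycin load, 1 of the 10 transcripts passed. Tsc1 was 1.28-fold higher in CITED, and none was lower, against 10.5% of all genes higher and 11.4% lower. Differential expression was reached by 0 of the 10 genes and by 2.65% of all genes. The median log2 fold change was 0.08 over the 10 genes and 0.00 over all genes. Of the 9 transcripts that did not pass, 95% confidence intervals lay within −0.32 and 0.34 on the log2 scale. RNA was measured from whole cultures, so fewer cells of a type and less RNA per cell cannot be told apart.

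**Figure D1:**
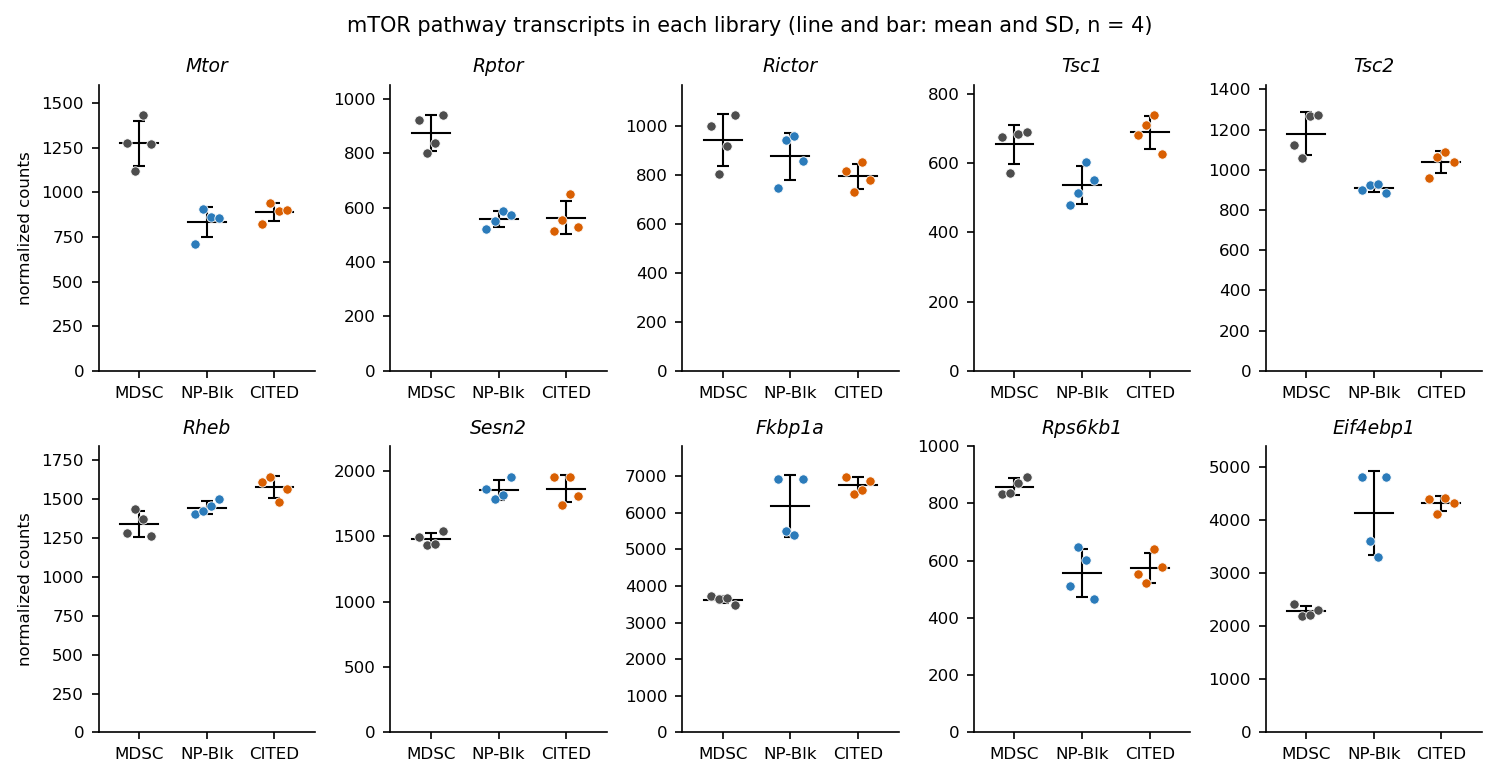
Normalized counts (vertical axes, from 0) of the 10 transcripts in each of the 12 libraries, with MDSC-NP-Blk written as NP-Blk, points for libraries, and line and bar for the mean and SD of 4 libraries. Mtor, Rptor, and Rps6kb1 lie higher in every MDSC library than in any NP-bearing library, Fkbp1a, Eif4ebp1, and Sesn2 lie lower, and the MDSC-NP-Blk and CITED points overlap for 8 of the 10 genes.

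The kinase subunit fell in both NP groups. Mtor stood at 1276, 1120, 1433, and 1272 normalized counts in MDSC libraries 1 to 4, at 713, 905, 863, and 858 in MDSC-NP-Blk, and at 821, 940, 897, and 899 in CITED. The lowest MDSC library lay above the highest of either NP group, and the NP groups overlapped. On the log2 scale the fold change was −0.52 ± 0.0798 (SE, adjusted p = 1.2e-06) in CITED and −0.61 ± 0.0797 (adjusted p = 1e-07) in MDSC-NP-Blk. After the length correction these became −0.17 (adjusted p = 0.048) and −0.36 (adjusted p = 5.1e-05). Between the NP groups the value was 0.09 (95% CI, −0.08 to 0.25, adjusted p = 0.51), and 0.19 (adjusted p = 0.048) after the correction. With length and GC content both corrected it was 0.17 and did not pass (adjusted p = 0.09). Mtor spans chr4:148533015-148642141 on the plus strand of GRCm39, with 58 exons in its canonical transcript of 8596 bases.

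Raptor, the subunit that presents substrates to mTORC1, followed the kinase. Rptor measured 920, 801, 836, and 939 normalized counts in MDSC, then 522, 549, 588, and 573 in MDSC-NP-Blk, then 515, 554, 651, and 530 in CITED. All MDSC libraries exceeded all NP-bearing libraries, and the NP groups covered the same range. The log2 fold change was −0.64 ± 0.0831 (adjusted p = 5.7e-08) in CITED and −0.65 ± 0.0827 (adjusted p = 5.9e-08) in MDSC-NP-Blk, and the length correction left −0.37 (adjusted p = 0.00011) and −0.47 (adjusted p = 3.7e-06). CITED and MDSC-NP-Blk differed by 0.01 (95% CI, −0.16 to 0.18, adjusted p = 0.98). Of the 31-base words in the Rptor transcript (chr11:119493731-119790402, plus strand, 6594 bases), 12.1% also occur in the gene model Gm69672 in the annotation used here. Whether the authors' release held this model is not known. If it did, reads from this stretch could not be placed with certainty.

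Rictor, which defines mTORC2, changed less than its mTORC1 counterpart. It was at 1000, 804, 922, and 1046 normalized counts in MDSC, at 749, 944, 961, and 858 in MDSC-NP-Blk, and at 816, 732, 855, and 780 in CITED. The 3 groups overlapped. CITED was lower than MDSC by −0.24 ± 0.0857 on the log2 scale (adjusted p = 0.019), but the call was lost when MDSC replicate 1 (−0.21), MDSC replicate 4 (−0.19), or CITED replicate 2 (−0.21) was left out. With the length correction the value turned to 0.13 (adjusted p = 0.16), and with length and GC corrected it was 0.24 (adjusted p = 0.0055). MDSC-NP-Blk differed from MDSC by −0.10 (95% CI, −0.27 to 0.07, adjusted p = 0.38), which turned to 0.17 (adjusted p = 0.065) and 0.23 (adjusted p = 0.01) under the same corrections. CITED and MDSC-NP-Blk differed by −0.15 (95% CI, −0.32 to 0.03, adjusted p = 0.26). The direction of Rictor against MDSC therefore depended on the correction. Rictor has the longest transcript of the 10 genes, with 9314 bases (chr15:6737860-6829882, plus strand).

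Tsc1, the scaffold of the complex that switches Rheb off, was the 1 transcript of the 10 that passed the test between CITED and MDSC-NP-Blk in the counts as deposited. It was at 674, 570, 683, and 690 normalized counts in MDSC, at 478, 514, 604, and 552 in MDSC-NP-Blk, and at 681, 710, 738, and 626 in CITED. Every CITED library lay above every MDSC-NP-Blk library, and both overlapped MDSC. The log2 fold change between the NP groups was 0.36 ± 0.0866 (adjusted p = 0.002), and 0.46 (adjusted p = 1.8e-05) after the length correction. Against MDSC, MDSC-NP-Blk was lower by −0.28 ± 0.0859 (adjusted p = 0.0076), a call that the length correction ended (−0.06, adjusted p = 0.62). CITED differed from MDSC by 0.07 (95% CI, −0.10 to 0.25, adjusted p = 0.52), and the corrected value was 0.40 (adjusted p = 3.7e-05). Tsc1 lies at chr2:28531061-28581179 on the plus strand, with a canonical transcript of 7891 bases.

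Tsc2 encodes the GTPase-activating subunit of the same complex. It was at 1123, 1058, 1266, and 1272 normalized counts in MDSC, at 898, 926, 932, and 885 in MDSC-NP-Blk, and at 961, 1065, 1091, and 1038 in CITED. MDSC-NP-Blk lay below both other groups without overlap, and CITED overlapped MDSC. The log2 fold change in MDSC-NP-Blk was −0.37 ± 0.0718 (adjusted p = 5.9e-05), and −0.18 (adjusted p = 0.03) with the length correction. In CITED it was −0.18 ± 0.0716 (adjusted p = 0.036), which did not pass without MDSC replicate 3, MDSC replicate 4, or CITED replicate 1 (−0.15 each) or CITED replicate 4 (−0.18), and which turned to 0.10 (adjusted p = 0.25) after the correction. Between CITED and MDSC-NP-Blk the difference of 0.19 ± 0.0725 missed the threshold (95% CI, 0.04 to 0.34, adjusted p = 0.058), whereas the corrected 0.28 passed (adjusted p = 0.0017). Tsc2 lies at chr17:24814783-24852192 on the minus strand (6864 bases).

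Rheb is the switch that the TSC complex controls. Its normalized counts were 1283, 1438, 1374, and 1261 in MDSC, then 1403, 1422, 1457, and 1497 in MDSC-NP-Blk, then 1610, 1643, 1482, and 1565 in CITED. CITED lay above MDSC in every library, and MDSC-NP-Blk overlapped both. The rise in CITED over MDSC was 0.23 ± 0.0626 on the log2 scale (adjusted p = 0.0021), and 0.07 (adjusted p = 0.36) after the length correction. With length and GC content both corrected it was 0.14 and passed narrowly (adjusted p = 0.05 after rounding). MDSC-NP-Blk differed from MDSC by 0.11 (95% CI, −0.02 to 0.24, adjusted p = 0.18), or −0.03 after the length correction (adjusted p = 0.77), and CITED from MDSC-NP-Blk by 0.12 (adjusted p = 0.17). Rheb has a transcript of 1784 bases (chr5:25007821-25047622, minus strand), and 2.39% of its 31-base words occur in other genes.

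Sesn2, whose product senses leucine and holds mTORC1 back through the GATOR complexes, rose in both NP groups. Its normalized counts were 1493, 1431, 1441, and 1538 in MDSC, then 1860, 1780, 1815, and 1952 in MDSC-NP-Blk, then 1954, 1740, 1951, and 1809 in CITED. MDSC did not overlap either NP group. The log2 fold change was 0.34 ± 0.0596 (adjusted p = 1.3e-05) in CITED and 0.33 ± 0.0595 (adjusted p = 2.7e-05) in MDSC-NP-Blk. CITED and MDSC-NP-Blk differed by 0.01 (95% CI, −0.11 to 0.13, adjusted p = 0.97). The length correction gave 0.40 and 0.37 against MDSC. With length and GC content both corrected, the values were 0.23 in CITED (adjusted p = 0.00072) and 0.27 in MDSC-NP-Blk (adjusted p = 1e-04). Sesn2 lies at chr4:132219335-132237815 on the minus strand, with a transcript of 3486 bases.

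Fkbp1a, the rapamycin receptor, was the most abundant of the 10 transcripts. Its normalized counts were 3719, 3635, 3658, and 3489 in MDSC, then 6913, 5497, 5397, and 6911 in MDSC-NP-Blk, then 6984, 6522, 6622, and 6872 in CITED. MDSC stayed below every NP-bearing library. MDSC-NP-Blk was spread widely, with replicates 1 and 4 at the level of CITED and replicates 2 and 3 below it. Over MDSC, Fkbp1a had a log2 fold change of 0.90 ± 0.0633 (adjusted p = 3.7e-14) in CITED and 0.77 ± 0.0632 (adjusted p = 3.6e-12) in MDSC-NP-Blk. CITED and MDSC-NP-Blk differed by 0.13 (95% CI, 0.00 to 0.26, adjusted p = 0.15), and the difference of 0.19 passed when MDSC-NP-Blk replicate 1 or replicate 4 was left out. Of the 31-base words of Fkbp1a, 2.43% occur in other genes, foremost Fkbp1a-ps1, the gene model Gm68199, and Fkbp1a-ps2. The pseudogenes Fkbp1a-ps1, Fkbp1a-ps2, and Fkbp1a-ps3 had 0 counts in all libraries, and counts of Gm68199 are not given here. The gene lies at chr2:151384382-151404651 on the plus strand, with a transcript of 1800 bases.

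The 2 substrates of mTORC1 moved in opposite directions. Rps6kb1, which encodes the kinase of ribosomal protein S6, was at 834, 836, 871, and 893 normalized counts in MDSC, at 511, 649, 603, and 467 in MDSC-NP-Blk, and at 554, 521, 642, and 578 in CITED. It was lower in every NP-bearing library than in any MDSC library, by −0.58 ± 0.0891 on the log2 scale in CITED (adjusted p = 1.2e-06) and by −0.62 ± 0.0887 in MDSC-NP-Blk (adjusted p = 5.8e-07). The length correction moved the CITED value to −0.38 (adjusted p = 0.00015), and with length and GC content both corrected it was −0.19 and did not pass (adjusted p = 0.053). The NP groups differed by 0.04 (95% CI, −0.15 to 0.22, adjusted p = 0.86). Rps6kb1 lies at chr11:86360804-86435982 on the minus strand, with a transcript of 5575 bases.

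Eif4ebp1 encodes 4E-BP1, which blocks cap-dependent translation until mTORC1 phosphorylates it. Its normalized counts were 2414, 2193, 2212, and 2310 in MDSC, then 4816, 3616, 3301, and 4824 in MDSC-NP-Blk, then 4412, 4129, 4421, and 4324 in CITED. MDSC lay below all NP-bearing libraries, and the MDSC-NP-Blk libraries enclosed those of CITED, again with replicates 1 and 4 on top. Its log2 fold change over MDSC was 0.92 ± 0.0788 (adjusted p = 4.5e-12) in CITED and 0.86 ± 0.0787 (adjusted p = 4.9e-11) in MDSC-NP-Blk. It was 0.06 between CITED and MDSC-NP-Blk (95% CI, −0.09 to 0.22, adjusted p = 0.62). The length correction gave 0.79 and 0.74 against MDSC. Of the 31-base words of its transcript (chr8:27750350-27805206, plus strand, 2004 bases), 8.84% occur in other genes.

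**Figure D2:**
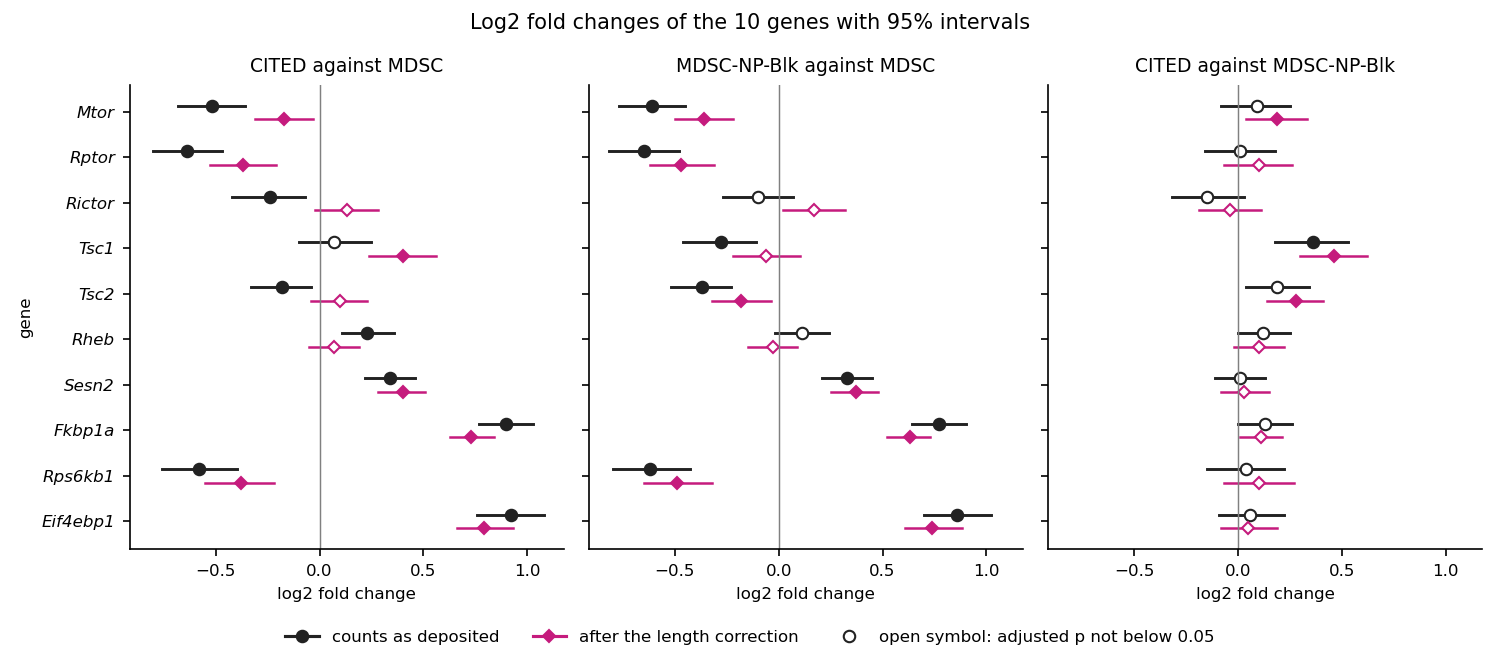
Log2 fold changes (horizontal axes) of the 10 genes in the 3 comparisons, with 95% confidence intervals, from the counts as deposited (circles) and after the length correction (diamonds), with filled symbols where the adjusted p was below 0.05. Fkbp1a, Eif4ebp1, and Sesn2 lie above 0 and Mtor, Rptor, and Rps6kb1 below it against MDSC with both, the Rictor and Tsc2 values cross 0 in CITED against MDSC, and Tsc1 passes with both in CITED against MDSC-NP-Blk.

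The genes called lower against MDSC have longer transcripts than the genes called higher. Mtor, Rptor, Rictor, Tsc1, Tsc2, and Rps6kb1 have transcripts of 5575 to 9314 bases, and Rheb, Sesn2, Fkbp1a, and Eif4ebp1 have transcripts of 1784 to 3486 bases. The same order ran through the 10543 genes with a mean above 50 normalized counts and a known transcript length, to which the following classes belong. In CITED against MDSC the median log2 fold change was 0.33 among the 1055 shortest genes (median length 969 bases) and −0.30 among the 1055 longest (median length 8542 bases). The corresponding medians were 0.28 and −0.24 in MDSC-NP-Blk against MDSC, and 0.04 and −0.07 in CITED against MDSC-NP-Blk. Beside these medians, Mtor (8596 bases) had −0.52 in CITED and −0.61 in MDSC-NP-Blk, and Tsc1 (7891 bases) had 0.36 between the NP groups. After the correction, 4 genes were higher and 3 lower in CITED against MDSC (background 24.4% and 19.4%), 3 higher and 4 lower in MDSC-NP-Blk against MDSC (20.6% and 17.1%), and 3 higher and 0 lower in CITED against MDSC-NP-Blk (13.6% and 10.5%). The 3 that passed between the NP groups were Tsc1, Tsc2, and Mtor, of which Mtor did not pass with GC content corrected as well (0.17, adjusted p = 0.09). The origin of the length trend was not tested.

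**Figure D3:**
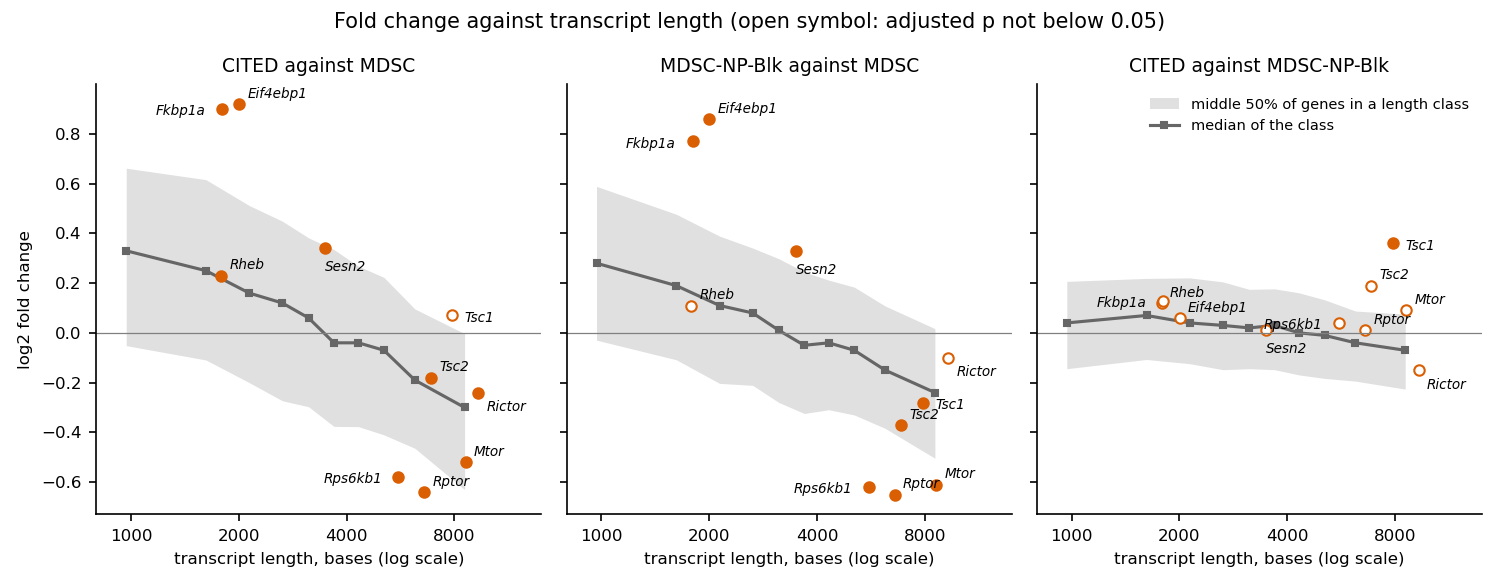
Log2 fold change (vertical axis) against canonical transcript length (horizontal axis, log scale) in the 3 comparisons, with the median of each of 10 length classes of about equal size (squares), the middle 50% of each class (band), and the 10 genes (circles, filled where the adjusted p was below 0.05). The class medians run from 0.33 down to −0.30 in CITED against MDSC and are nearly flat in CITED against MDSC-NP-Blk, where Tsc1 stands at 0.36.

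The length trend also varied within MDSC-NP-Blk. Replicates 1 and 4, the higher ones for Fkbp1a and Eif4ebp1 and the lower ones for Rps6kb1 (511 and 467, against 649 and 603), had correlations of −0.42 and −0.24 between relative expression and length, whereas replicates 2 and 3 had −0.05 and 0.09. Over the 12 libraries, log2 expression of Fkbp1a and Eif4ebp1 had a Pearson r of 0.99, that of Fkbp1a and Rps6kb1 −0.95, that of Mtor and Rptor 0.91, and that of Sesn2 and Eif4ebp1 0.95. These values describe 12 libraries that share group differences, depth, and the length trend. The patterns most like that of Eif4ebp1 among 10555 genes were those of Sdf2 (r = 0.993), Susd3 (r = 0.993), and Fkbp1a (r = 0.990). Those most like Fkbp1a were Hilpda (r = 0.998), Fam174a (r = 0.994), and Map1lc3b (r = 0.993).

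Per transcript length, the 10 genes kept a similar order in the 3 groups. Fkbp1a led with 2010 ± 54.1 (SD, n = 4) normalized counts per kilobase in MDSC, against 3430 ± 471 (MDSC-NP-Blk) and 3750 ± 119 (CITED). Eif4ebp1 followed with 1140 ± 50.7, 2070 ± 397, and 2160 ± 67.5, then Rheb with 751 ± 46, 810 ± 23.2, and 883 ± 39.2, and Sesn2 with 423 ± 14.2, 531 ± 21.3, and 535 ± 30.5. Neighbors among these 4 did not overlap in any group. The complex subunits, Tsc genes, and Rps6kb1 were far lower, between 68.1 and 172 in the group means. In MDSC the ranges of Tsc2, Rps6kb1, Mtor, and Rptor overlapped between neighbors, with Tsc1 lowest at 82.9 ± 7.17, overlapping Rictor at 101 ± 11.4. In CITED, Tsc2 at 151 ± 8.22 stood clear of the rest, Mtor (103 ± 5.76) overlapped Rps6kb1 (103 ± 9.15), and Tsc1 (87.3 ± 6.09), Rictor (85.4 ± 5.61), and Rptor (85.3 ± 9.22) overlapped. The transcript of the rapamycin receptor thus exceeded that of its target per length in every group.

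**Figure D4:**
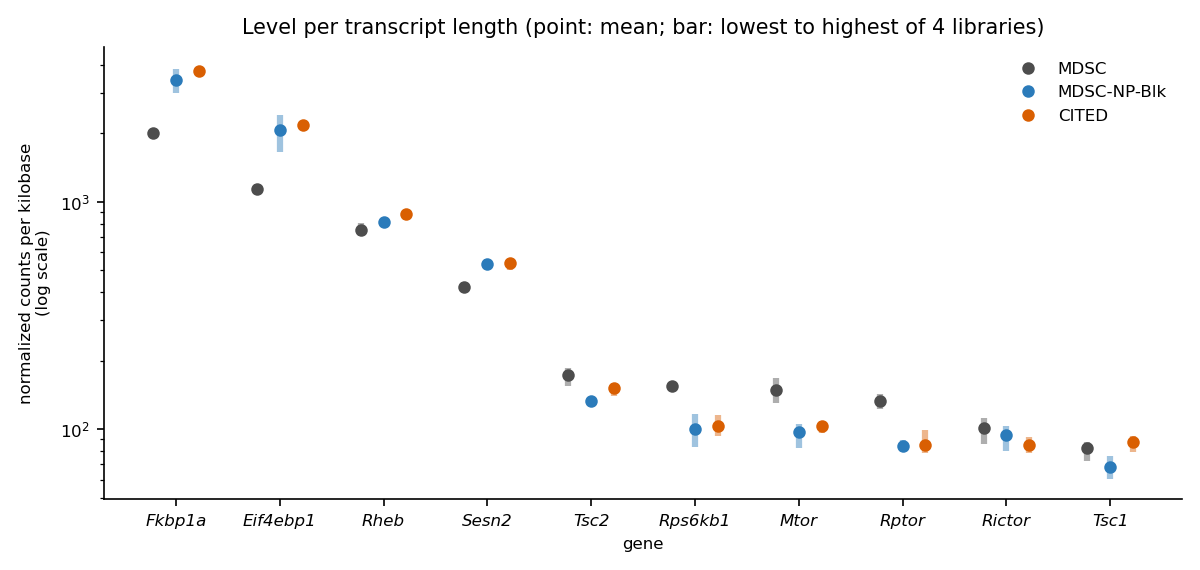
Normalized counts per kilobase of canonical transcript (vertical axis, log scale) for the 10 genes, ordered by the MDSC mean, with points for group means and bars from the lowest to the highest of 4 libraries. Fkbp1a, Eif4ebp1, Rheb, and Sesn2 stand above the other 6 genes in all groups, from 423 per kilobase upward, against 172 or less.

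Ratios within a library compare 2 genes free of the library scale, and 7 pairs were formed after the values had been seen. Dividing by length does not remove the length trend, which stays in a ratio of 2 transcripts of unlike length. Raptor relative to rictor, per length, was 1.3, 1.41, 1.28, and 1.27 in MDSC, then 0.984, 0.821, 0.864, and 0.943 in MDSC-NP-Blk, then 0.892, 1.07, 1.07, and 0.96 in CITED. MDSC did not overlap either NP group (exact permutation p = 0.0286 for each, the smallest that 4 against 4 libraries allow, adjusted p = 0.0667 over 21 tests). Tsc1 relative to Tsc2 was 0.483 ± 0.0261 in MDSC and 0.513 ± 0.0474 with blank NPs, compared to 0.577 ± 0.0386 in CITED, without overlap between CITED and MDSC (exact permutation p = 0.0286, adjusted p = 0.0667). Eif4ebp1 relative to Fkbp1a was nearly the same, with 0.566 in MDSC and, among the NP groups, 0.598 in MDSC-NP-Blk and 0.575 in CITED (exact permutation p from 0.2 to 0.571). Rheb relative to Fkbp1a was 0.373 in MDSC, compared to 0.239 (MDSC-NP-Blk) and 0.236 (CITED), also without overlap with MDSC (adjusted p = 0.0667). Mtor relative to Rictor was the 1 pair without overlap between the NP groups (1.22 ± 0.134 in CITED, 1.03 ± 0.0454 with blank NPs, exact permutation p = 0.0286, adjusted p = 0.0667), and it overlapped between CITED and MDSC (1.47 ± 0.162, exact permutation p = 0.0857). Rheb relative to Tsc2 was 5.85 in CITED, 6.11 with blank NPs, and 4.4 in MDSC, and Rps6kb1 relative to Tsc2 was 0.681, 0.752, and 0.9. Of these, MDSC was without overlap with MDSC-NP-Blk for the first ratio and with CITED for the second (exact permutation p = 0.0286 each, adjusted p = 0.0667). Rheb (1784 bases) and Tsc2 (6864 bases) differ widely in length. Their length-corrected log2 fold changes against MDSC were 0.07 and 0.10 in CITED, and −0.03 and −0.18 in MDSC-NP-Blk. Adjusted p-values of the 21 exact tests were 0.0667 or higher.

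Markers of other cells were measured in the same libraries. Summed over 4 genes, B cell markers were 69 to 91.7 normalized counts in CITED, 136 to 223 with blank NPs, and 223 to 322 in MDSC, all 4 detected. In the same order, the 4 mast cell and basophil markers summed to 2530 to 2700, 4100 to 4770, and 3820 to 4170, and the 5 dendritic cell markers to 9110 to 10100, 7290 to 7670, and 10700 to 11700, nearly all of it Itgax. The 4 macrophage markers summed to 4930 to 5150, 4110 to 5220, and 5160 to 5560, and the 3 megakaryocyte markers to 5280 to 5810, 5600 to 5860, and 3590 to 4160. The 9 myeloid markers summed to 665000 to 757000, 842000 to 893000, and 607000 to 694000, most of it S100a8 and S100a9, and the members differed in direction. In the same order, Csf1r averaged 22600, 21200, and 11300, Csf3r 12600, 11000, and 4340, and Cebpb 19100, 13500, and 6730. Itgam averaged 70000, 61400, and 52000, and Ly6g 4570, 4620, and 3930. Ly6c2 (20200, 33700, and 25700) and Ly6c1 (16.3, 41.2, and 33.2) were lowest in CITED. B cell markers were thus lowest in CITED and highest in MDSC, without overlap of CITED with either group. The T cell, NK cell, and erythroid lists summed to at most 63.4, 42.1, and 111 in any library, with Ncr1 at 0 in all. The part of these differences in the mTOR pathway results was not tested.

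Another 100 genes of the pathway, in 9 roles, were listed and tested in the same fit. CITED had 39 higher and 26 lower than MDSC (6 differentially expressed, Prr5l, Castor1, and Eif4ebp3 upward and Sesn3, Prkaa2, and Grb10 downward), MDSC-NP-Blk had 35 higher and 25 lower (3 differentially expressed, Castor1, Eif4ebp3, and Grb10), and CITED had 14 higher and 13 lower than MDSC-NP-Blk (0 differentially expressed). Beside these counts, 22.2% of all genes were higher and 22.2% lower in CITED against MDSC (9.99% differentially expressed), 19.9% and 18.6% in MDSC-NP-Blk against MDSC (4.74%), and 10.5% and 11.4% in CITED against MDSC-NP-Blk (2.65%). The medians of the log2 fold change were 0.07, 0.04, and 0.01, beside −0.05, −0.03, and 0.00 over all genes. With the length correction the counts were 42 and 20, 38 and 22, and 21 and 11, beside 24.4% and 19.4%, 20.6% and 17.1%, and 13.6% and 10.5% of all genes. These shares are the background of the counts by role that follow.

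Among 9 partners of the mTOR complexes, 2 were higher and 3 lower in CITED than in MDSC (3 and 3 with the length correction). Prr5l, which encodes an mTORC2-binding protein, was at 780 normalized counts in CITED, 600 in MDSC-NP-Blk, and 346 in MDSC. It rose by 1.17 ± 0.0797 on the log2 scale over MDSC (adjusted p = 1.4e-14) and by 0.38 ± 0.0774 over MDSC-NP-Blk (adjusted p = 0.00027). Mlst8, the subunit common to both complexes, moved the other way, with 295 in CITED, 392 with blank NPs, and 562 in MDSC. Its log2 fold change was −0.92 ± 0.1 (adjusted p = 1.1e-09) in CITED against MDSC and −0.41 ± 0.102 (adjusted p = 0.0028) against MDSC-NP-Blk. Of the 2 partners of the TSC complex and Rheb, Rhebl1 passed in CITED against MDSC (81.3 against 51.1, adjusted p = 0.022), not after the length correction (0.47 against 0.68), and Tbc1d7, the remaining TSC subunit, did not (113 against 119, adjusted p = 0.79).

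Rag GTPases and Ragulator carry the amino acid signal to mTORC1 on the lysosome. Of 13 such genes, 9 were higher and 1 lower in CITED than in MDSC, and 5 were higher and 0 lower in CITED than in MDSC-NP-Blk (background 22.2% each way, then 10.5% and 11.4%). With the length correction the counts were 9 and 0, then 7 and 0. Lamtor4 was at 2770, 2410, and 1450 normalized counts in CITED, MDSC-NP-Blk, and MDSC, and Lamtor1 was at 3560, 2900, and 2180. Lamtor1 exceeded MDSC-NP-Blk by 0.30 ± 0.0572 in CITED (adjusted p = 0.00013), and Lamtor4 did not pass there (0.20, adjusted p = 0.063) but did with the length correction (0.22, adjusted p = 0.0088). The 2 genes with the lowest p between the NP groups in this role, singled out after their values were seen, were Fnip2 (0.55 ± 0.0626, adjusted p = 1.6e-08) and Flcn (0.46 ± 0.0712, adjusted p = 5e-06), which encode partners in the folliculin complex. Of the 12 GATOR and KICSTOR genes, which relay amino acid shortage, 1 was higher and 3 lower in CITED than in MDSC (1 and 2 with the length correction). Seh1l was lower in CITED than in MDSC-NP-Blk by −0.32 ± 0.0634 (adjusted p = 2e-04).

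Of the 6 amino acid sensors and sestrins other than Sesn2, 1 was higher and 5 lower in CITED than in MDSC, the same counts as with the length correction. Among the lower genes, Bmt2 had no transcript length, so the correction left its value as it was. Castor1, an arginine sensor, rose to 416 normalized counts in CITED and 424 in MDSC-NP-Blk from 179 in MDSC (log2 fold changes of 1.22 and 1.24). Sesn3, a relative of Sesn2, was at 52.3 in CITED, 97.7 with blank NPs, and 175 in MDSC. It was lower in CITED than in MDSC by −1.73 ± 0.213 (adjusted p = 1.7e-08) and lower than in MDSC-NP-Blk by −0.89 ± 0.22 (adjusted p = 0.0025). Sesn2 rose in the same comparison with MDSC in which Sesn3 fell. Lars1, the leucyl-tRNA synthetase, was at 694 in CITED, 764 in MDSC-NP-Blk, and 1390 in MDSC.

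Growth factor and energy inputs were mixed. Of 17 PI3K and Akt genes, 7 were higher and 5 lower in CITED than in MDSC. Blank NPs had 5 higher and 4 lower than unmodified cells. After the length correction, each NP group had 9 higher and 1 lower than MDSC. Between the NP groups, 2 were higher and 3 lower in CITED (4 and 1 with the correction). Akt2 was at 4740 normalized counts in CITED and 4680 with blank NPs, against 3240 in MDSC (adjusted p = 1.3e-11 and 6e-11). The NP groups differed by 0.02 for Akt2 (adjusted p = 0.85). Of 9 AMPK and stress genes, 4 were higher and 1 lower in CITED than in MDSC, with or without the correction. The lower gene was not the same. It was Prkaa2 without the correction and Ddit4 with it (−0.32, adjusted p = 0.0014). Stk11, which encodes the AMPK-activating kinase LKB1, was at 3600, 3090, and 2290 in CITED, MDSC-NP-Blk, and MDSC, Prkag1 at 2410, 2410, and 1560, and Prkaa2 at 19.5, 38.4, and 39.8, with the last not passing after the length correction. Ddit4, which encodes the mTORC1 inhibitor REDD1 and was singled out after its values were seen, was at 1590 in CITED, 2800 in MDSC-NP-Blk, and 1770 in MDSC. It fell by 0.81 on the log2 scale between MDSC-NP-Blk and CITED (adjusted p = 1.8e-08), the lowest p of any of the 9 genes in that comparison.

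Of 14 other genes for FK506-binding proteins, the family of Fkbp1a, 5 were higher and 3 lower in CITED than in MDSC, beside 22.2% of all genes each way. The balance turned to 4 higher and 5 lower with the length correction, and the median from −0.08 to −0.24. Fkbp8 was at 5370 normalized counts in CITED, 4300 in MDSC-NP-Blk, and 3340 in MDSC, and it passed in all 3 comparisons (0.32 ± 0.0477 between the NP groups, adjusted p = 2.6e-06). Fkbp4, a cochaperone of Hsp90, was at 1260, 1330, and 1870 and did not pass between the NP groups (adjusted p = 0.43). The remaining 6 did not pass in CITED against MDSC.

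Among 18 outputs and substrates, 9 were higher and 5 lower in CITED than in MDSC, and 1 was higher and 3 lower in CITED than in MDSC-NP-Blk (11 and 3, then 3 and 3, with the length correction). Rps6, the ribosomal protein that S6 kinase phosphorylates, was at 27600 normalized counts in CITED, 33400 in MDSC-NP-Blk, and 19300 in MDSC. Its log2 fold change in CITED over MDSC was 0.51, and 0.29 with the correction. It was lower in CITED than in MDSC-NP-Blk by −0.27 ± 0.0457 (adjusted p = 1.6e-05). Eif4b, a translation initiation factor, was at 13200, 14200, and 8750. Eif4ebp3, a relative of Eif4ebp1, had a mean of 5.16 in CITED, 3.67 in MDSC-NP-Blk, and 0 in MDSC, near the limit of detection, so its fitted fold change is not given. Grb10, an adaptor that restrains insulin signaling, fell to 8.92 in CITED and 12.1 in MDSC-NP-Blk from 48 in MDSC (log2 fold changes of −2.43 ± 0.521 and −1.95 ± 0.495). Its mean over all libraries was 23 normalized counts, so these fold changes rest on few counts.

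**Figure D5:**
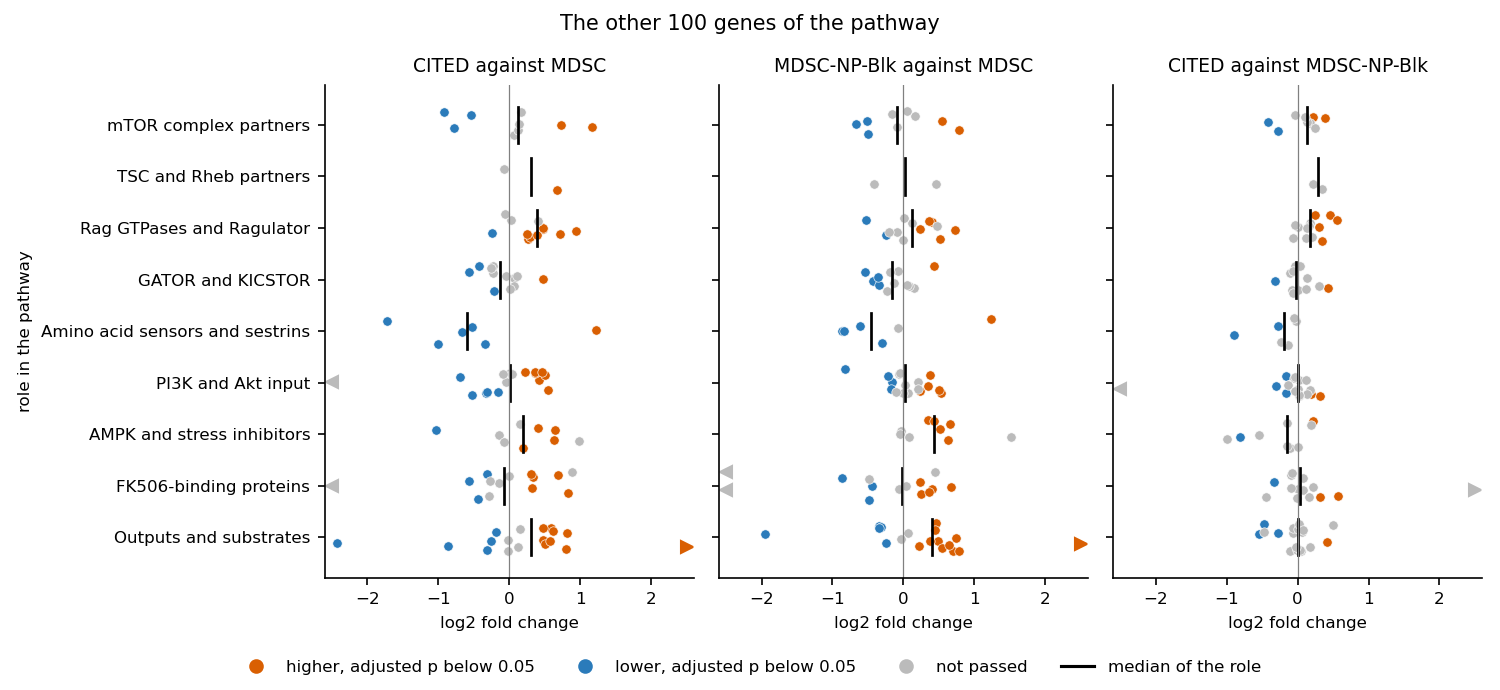
Log2 fold changes (horizontal axes, cut at 2.6 with triangles for values beyond) of the other 100 genes of the pathway by role in the 3 comparisons, with points for genes, color for the call at an adjusted p below 0.05, and black bars for the median of a role. Rag and Ragulator genes lie mostly to the right in CITED against MDSC (median 0.39), sensors and sestrins mostly to the left (median −0.60), and most points are gray in CITED against MDSC-NP-Blk, where 27 of 100 passed.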

How the data were processed

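The authors deposited 1 table of whole-number counts per gene symbol for the 12 libraries, neither normalized nor filtered. Per their methods and processing notes, poly(A)-enriched RNA was sequenced in paired ends, quantified with Salmon 1.4.0 against GENCODE transcripts of GRCm39 with genome decoys, and summed per gene in R 4.3.2. The GENCODE release is not given in the sources used here. Groups and replicate numbers came from the sample titles.

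The 10 genes and the wider lists were chosen with earlier results of these data known. Symbols with at least 2 counts in total were kept (17676 of 35303, 16796 symbols were at 0 throughout). In R 4.3.3, edgeR 4.0.16 fitted TMM factors and a quasi-likelihood model of the 3 groups, without covariates, to all 12 libraries (glmQLFit and glmQLFTest, robust off), and p-values were adjusted by the Benjamini-Hochberg method over all genes tested. Standard errors were derived from the log2 fold change and its F statistic. Named genes of the wider lists are, per role, every differentially expressed gene and the 2 with the lowest p among those with a mean above 50 normalized counts, of which 2 genes are not reported here. Patterns were likened by Pearson r of log2 CPM with a prior count of 2. The length correction used a loess curve (span 0.5) per library of relative expression against the length of the canonical transcript in GENCODE, whose GRCm39 annotation also gave coordinates and promoters. Alternatives were DESeq2 1.42.0, other factors and filters, fits of only the 8 libraries compared, a replicate block, corrections for length and GC content, and leaving out each library. The steps were also run on simulated counts, with the same length trend added to every NP-bearing library. The trend in these data varied within MDSC-NP-Blk, so that run does not test the length correction on these data. Intervals cover the spread between libraries, counting error included. Library totals were 20604809 to 37855478 counts, and raw counts of the 10 genes went down to 375 (Tsc1 in MDSC-NP-Blk replicate 1). The part of counting error in the spread was not separated. Protein sequences were not used here. Figures were drawn with Python 3.11.15 and matplotlib 3.10.9.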

Additional observations from a re-analysis of the deposited data

Results flagged for a closer look

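One value stood apart from its group. Tsc1 in MDSC replicate 2 was at 570 normalized counts, whereas the other 3 MDSC libraries were at 674 to 690, so that its gap to the nearest made up 0.863 of the range of the group, above the 95% critical value of Dixon's test for 4 samples. The test was applied to the 10 genes in 3 groups, 30 times in all, and chance gives about 1 in 20. Without this library Tsc1 still did not pass in CITED against MDSC and still passed in MDSC-NP-Blk against MDSC.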

How the results depend on the processing

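Of 660 refits of the 30 fold changes of the 10 genes, 608 kept their direction and side of the threshold, 15 lost the call, 15 gained it, and 22 changed direction, 6 of them where the deposited counts had passed. The 6 were all length corrections. Rictor in CITED against MDSC was 0.13 with the length correction, alone or with the replicate block, and 0.24 with length and GC content. Tsc2 in the same comparison was 0.10, 0.10, and 0.04. Below the threshold, Rictor in MDSC-NP-Blk against MDSC turned to 0.17, 0.17, and 0.23, Rheb there to −0.03 with the length correction alone or with the block, and in CITED against MDSC-NP-Blk Rictor turned to 0.02 and Sesn2 to −0.04 with length and GC content. Leaving out 1 library gave CITED against MDSC-NP-Blk values of −0.06 to 0.05 for Rptor, −0.01 to 0.04 for Sesn2, −0.04 to 0.12 for Rps6kb1, and −0.03 to 0.15 for Eif4ebp1.

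The 1 gene of 10 that passed in CITED against MDSC-NP-Blk became 2 with DESeq2, upper-quartile factors, the stricter filter, the replicate block, or length and GC content, and 3 with the length correction alone or with the block. It was 1 to 2 when a library was left out, with 2 without MDSC-NP-Blk replicate 1, MDSC-NP-Blk replicate 4, or CITED replicate 1. The count of differentially expressed genes among the other 100 in that comparison was 0 to 1 when a library was left out.

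Libraries with the same replicate number did not deviate together (correlations of −0.06 to 0.14 over the 3 comparisons, −0.16 to 0.16 for other pairs), so the number was treated as a name. With it as a block, Fkbp1a passed in CITED against MDSC-NP-Blk (0.13, adjusted p = 0.041).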

Other observations

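Sesn2 is a known target of ATF4, p53, and Nrf2, stress-responsive transcription factors, and 21 genes of these programs were measured beside it, from a list made with earlier results known. Of the 7 genes of Nrf2 and its targets, 7 were higher in CITED than in MDSC, 4 in MDSC-NP-Blk than in MDSC, and 6 in CITED than in MDSC-NP-Blk, beside 22.2%, 19.9%, and 10.5% of all genes. In the last comparison Sesn2 itself did not pass (0.01, adjusted p = 0.97). Txnrd1, which encodes a thioredoxin reductase, was at 7490 normalized counts in CITED and 4870 in MDSC-NP-Blk (adjusted p = 1e-10). Gclm, for a subunit of the enzyme that starts glutathione synthesis, was at 5320 and 3600 (adjusted p = 3.1e-11).

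Of the 6 genes of p53 and its targets, 5 were higher in CITED than in MDSC, 3 in MDSC-NP-Blk than in MDSC, and 5 in CITED than in MDSC-NP-Blk, with the same background. Trp53 did not pass in any of the 3. Sesn1, another sestrin, is not on the list and was lower against MDSC. Its log2 fold change was −0.53 in CITED (adjusted p = 1e-05) and −0.30 in MDSC-NP-Blk (adjusted p = 0.0082). Between the NP groups it did not pass (−0.23, adjusted p = 0.077). Bbc3, which encodes the death-promoting protein PUMA, was at 871 in CITED, 642 in MDSC-NP-Blk, and 195 in MDSC. Of the 8 genes of ATF4 and its targets, 4 were higher and 4 lower in CITED than in MDSC (22.2% of all genes each way). Ddit3 was at 547 in CITED against 286 in MDSC, and Asns, the asparagine synthetase, was at 350 against 800. Each list contains the factor itself, and all genes named here were singled out after their values were seen.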
